A study of Mus musculus with 12 samples.

Results

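The cytosolic ribosomal protein genes of the mouse kidney were taken as the protein-coding rows of the count table whose symbol is Rpl or Rps followed by a number, together with Rplp0, Rplp1, Rplp2 and Rpsa, leaving out the Rps6 kinases. The rule found 86 genes among 39171 rows, and all 86 had counts high enough to be tested. Of these, 76 are canonical ribosomal proteins, 31 of the small subunit and 45 of the large subunit. A further 5 are paralogues that can stand in for a canonical protein (Rpl3l, Rpl7l1, Rpl22l1, Rpl36al and Rps27l). The annotation GENCODE M21 lists 3 members as pseudogenes (Rps3a2, Rps3a3 and Rps4y2). Among the other 2, Rps19bp1 is named for binding Rps19 and is not a ribosomal protein, and the row with the symbol Rpl24 carries a gene ID that the annotation gives to Zbtb11. The rule goes by symbol, so these rows stay among the 86, and counts over the 76 canonical genes are given beside them.

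RNA was measured in kidneys of 12 male mice of up to 3 months, 1 library per mouse. The groups were 4 sick knock-in mice and 4 healthy knock-in mice, both of the genotype GNE M743T/M743T, and 4 wild-type mice. The labels name no treatment and do not say how a knock-in mouse was judged sick or healthy. The Gne protein is the enzyme that starts sialic acid synthesis.

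The cytosolic ribosome is built of ribosomal RNA and close to equal numbers of copies of each ribosomal protein, so cells regulate these genes largely as a group. Their mRNAs are short and abundant and begin with a run of pyrimidines at the 5′ end, the TOP motif, through which mTOR signalling controls their translation. The ribosomes of mitochondria have a protein set of their own, also encoded in the nucleus, which serves here as a comparison.

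The sequences around the annotated start sites are given first, because the TOP motif lies there. Promoter entries from RefSeq (GRCm38.p6, 250 bases before and 50 after the start) were found for 63 of the 86 members. A run of at least 6 pyrimidines beginning with C, searched on the transcript strand from 10 bases before to 20 bases after the start, was present in 32 of these 63 (50.8%) and in 22.0% of 27025 promoters of all genes. The lines below give those 30 bases, with the run in capitals, for members with large rises in sick mice (Rpl12, Rps12, Rps24, Rps9, Rps16), for Rpl15, which has a long run and did not pass the test, and for the paralogues Rpl3l and Rpl7l1, which were lower.
Rpl12 (chr2:32961702-32961731, forward strand): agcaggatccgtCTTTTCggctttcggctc
Rps12 (chr10:23787190-23787219, reverse strand): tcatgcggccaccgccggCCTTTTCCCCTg
Rps24 (chr14:24490668-24490697, forward strand): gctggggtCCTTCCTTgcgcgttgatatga
Rps9 (chr7:3704031-3704060, forward strand): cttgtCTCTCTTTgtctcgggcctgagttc
Rps16 (chr7:28350679-28350708, forward strand): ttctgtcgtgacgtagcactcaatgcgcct
Rpl15 (chr14:18270967-18270996, reverse strand): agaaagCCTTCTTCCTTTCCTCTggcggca
Rpl3l (chr17:24727816-24727845, forward strand): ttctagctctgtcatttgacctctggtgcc
Rpl7l1 (chr17:46782637-46782666, reverse strand): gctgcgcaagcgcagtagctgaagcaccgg

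Further motifs were searched on both strands of the 300 bases. CTTCCGG, the core bound by ETS factors, was present in 38.1% of the 63 member promoters and in 9.14% of all promoters. GGGCGG, the GC box, was present in 61.9% of members and 35.9% of all promoters. CCATCTT, a core bound by YY1, was present in 15.9% of members and 6.46% of all, and TATAAA in 11.1% of members and 14.2% of all. The 100 bases before the start of Rpl12, the member with the largest rise, hold a GC box, and those of Rpl15 hold CCGGAAG, the reverse strand of the ETS core, each in capitals below.
Rpl12 (chr2:32961612-32961711, forward strand): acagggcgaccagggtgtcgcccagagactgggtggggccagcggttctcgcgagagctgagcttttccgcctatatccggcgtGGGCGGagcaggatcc
Rpl15 (chr14:18270987-18271086, reverse strand): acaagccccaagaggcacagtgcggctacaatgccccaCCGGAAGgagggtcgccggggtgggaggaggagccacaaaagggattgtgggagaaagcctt

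Total counts were 10605546 to 22633684 in sick knock-in, 18191087 to 21925419 in healthy knock-in and 13189478 to 19493856 in wild-type mice. Wild-type mouse 2 stood apart. Relative to the healthy knock-in mean, its genes with transcripts of 501 to 1000 bases, members left out, had a median log2 level of 0.78, and those with transcripts over 8000 bases one of -0.94. Among the other wild-type and the healthy knock-in libraries no length class was beyond 0.07 in size. Sick mouse 3 showed a smaller slope of the same sign, from 0.13 in the 501 to 1000 class to -0.40 in the longest, and the other sick libraries a slope of the opposite sign. The members are short, with a median transcript of 786 bases against 2755 over the genes tested, so the comparisons of the members are given with and without wild-type mouse 2.

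Ribosomal protein genes took up a larger share of the RNA in sick kidneys. Their summed share of all counts was 1.72%, 1.54%, 1.96% and 1.83% in the sick knock-in mice. It was 0.689%, 0.797%, 0.790% and 0.715% in the healthy knock-in mice, and 0.795%, 1.47%, 0.743% and 0.752% in wild-type mice 1 to 4. On this scale every sick library was above every other library. Bulk RNA cannot tell apart less RNA per cell from fewer cells of a type. Wild-type mouse 2 lay between the sick mice and the rest. The means were 1.77 ± 0.178% in sick, 0.748 ± 0.0540% in healthy knock-in and 0.941 ± 0.356% in wild-type mice (SD, n = 4 each), the last becoming 0.763 ± 0.0278% without mouse 2. Against effective library sizes (TMM), the sums averaged 13519 ± 1934 CPM in sick mice, 8545 ± 414 CPM in the healthy knock-ins and 10808 ± 4089 CPM in wild-type mice (8766 ± 244 CPM without mouse 2). On that scale wild-type mouse 2, at 16935 CPM, was above all 4 sick mice. The share of counts from the mitochondrial genome, 5.29% to 9.06% in sick, 14.3% to 15.7% in healthy knock-in and 11.1% to 16.5% in wild-type libraries, differed between the same groups. With mitochondrial genes left out of the totals the members' share was 1.82%, 1.65%, 2.12% and 2.02% in the sick mice, 0.817% to 0.935% in the healthy knock-ins, and 0.933%, 1.66%, 0.890% and 0.893% in wild-type mice 1 to 4. There wild-type mouse 2 was just above sick mouse 2, and every sick library was still above all healthy knock-in and the other wild-type libraries.

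**Figure D1:**
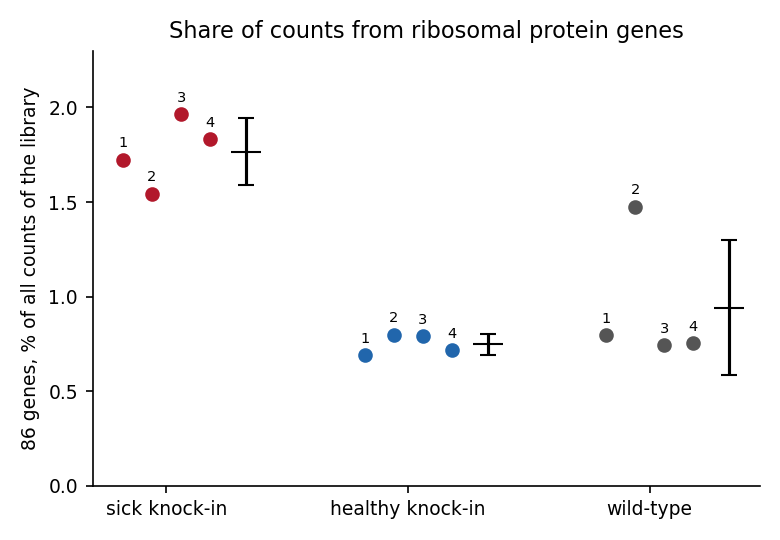
Share of all counts (vertical axis, %) that came from the 86 ribosomal protein genes in each kidney library, numbered by mouse, with the mean ± SD of each group of 4 in black. The sick knock-in mice sit between 1.54% and 1.96%, the healthy knock-in mice between 0.689% and 0.797%, and wild-type mouse 2 at 1.47% apart from the other wild-type mice.

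Sick and healthy knock-in mice share their genotype, and comparing them asks what differs with illness. In sick kidneys edgeR's quasi-likelihood test, with an adjusted p under 0.05 as the threshold, called 57 of the 86 genes higher and 2 lower. Over all 15589 genes tested, 24.5% rose and 21.9% fell in the same comparison. The median log2 fold change was 0.65 over the members and 0.05 over all genes. All 57 were canonical, 25 of the 31 small subunit genes with a median of 0.74 and 32 of the 45 large subunit genes with a median of 0.65, and all 76 canonical values were positive. In 69 members every sick mouse was above every healthy one, against 24.0% of all genes.

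The largest rise was that of Rpl12, a large subunit protein at the base of the stalk. It stood at 142, 112, 169 and 151 CPM in sick knock-in mice, against 51.5, 59.6, 58.4 and 61.8 CPM in healthy knock-in mice. The groups were far apart, 2.48-fold (log2 fold change 1.31 ± 0.21, adjusted p = 0.000319). Rps12, a small subunit protein, stood at 253, 212, 329 and 287 CPM in sick, against 113, 136, 135 and 126 CPM in healthy mice (1.08 ± 0.22, adjusted p = 0.00156). Rps9, which sits at the entry of the mRNA channel, stood at 430, 410, 566 and 462 CPM in sick, against 214, 232, 235 and 237 CPM in healthy mice (1.02 ± 0.24, adjusted p = 0.00352). In each of these genes sick mouse 3 was the highest and sick mouse 2 the lowest of the sick group, and the lowest sick mouse was well above the highest healthy one.

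The other members with the largest rises were Rps3a1, Rps24, Rps20, Rpl36a, Rps4x, Rps16 and Rps19, with log2 fold changes of 0.93 to 1.07 and adjusted p of 0.00135 to 0.0113. Rps4x, the small subunit gene on the X chromosome, stood at 339, 291, 396 and 332 CPM in sick, against 166, 171, 178 and 165 CPM in healthy mice. Rps19, whose human counterpart is the gene most often mutated in Diamond-Blackfan anaemia, stood at 120, 114, 158 and 139 CPM in sick, against 63.5, 68.5, 72.9 and 74.3 CPM in healthy mice. Neither gene showed any overlap of the groups. The level of Rps3a1 is uncertain, because reads can be split with its near-identical copies. The copy Rps3a3 held 0.188% of the summed level of the 3 rows in sick mouse 1 and 0.0649% in wild-type mouse 1, but 10.7% to 30.0% in the other libraries. The sum of the 3 rows was 194, 141, 225 and 162 CPM in sick, against 91.1, 97.5, 110 and 94.1 CPM in healthy mice, again with no overlap.

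**Figure D2:**
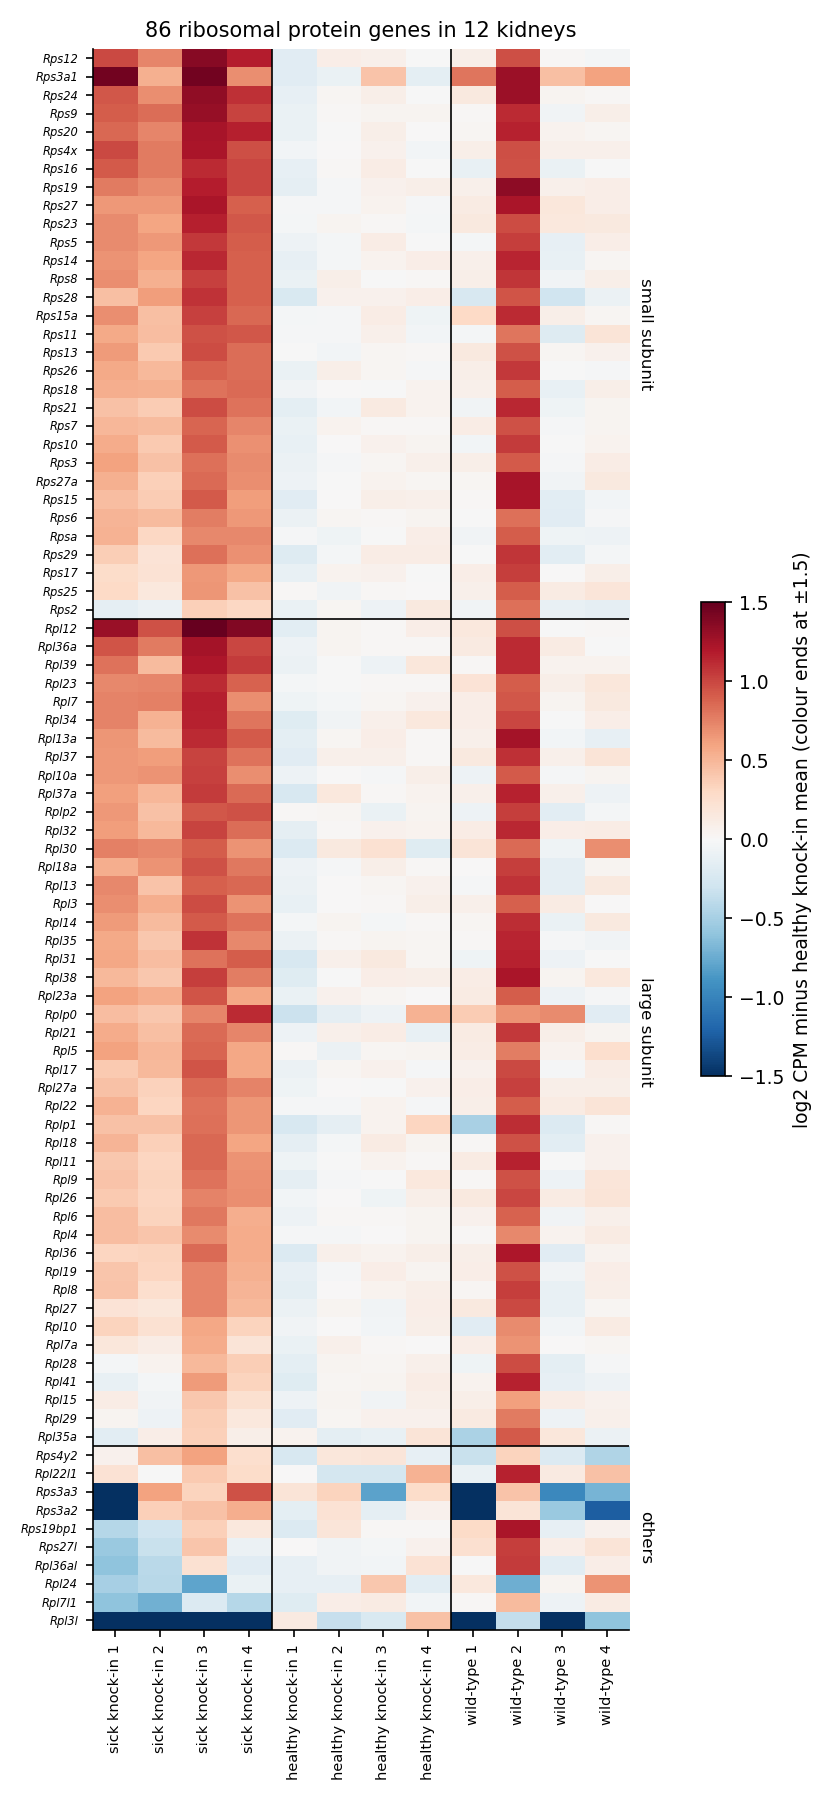
Log2 CPM minus the healthy knock-in mean (colour) for the 86 genes, down the page by subunit and by change in sick over healthy mice, in the 12 kidneys. The sick knock-in columns are red for nearly all canonical genes, wild-type mouse 2 is red for canonical genes and most paralogues alike, and in the other healthy and wild-type columns most canonical genes are pale, while Rps3a2, Rps3a3 and Rpl3l are dark blue in wild-type mouse 1.

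Among the canonical genes, 19 did not pass. Without wild-type mouse 2 in the fit 69 members rose and 2 fell (27.7% and 25.9% of 15878 genes tested), and 7 canonical genes still did not pass. These 7 were Rpl7a, Rpl15, Rpl28, Rpl29, Rpl35a, Rpl41 and Rps2, with log2 fold changes of 0.09 to 0.26 there. Rps2, which sits by the mRNA entry channel, stood at 123, 127, 174 and 167 CPM in sick, against 126, 138, 128 and 149 CPM in healthy mice (0.12 ± 0.21, adjusted p = 0.658). Rpl41, the shortest ribosomal protein, stood at 176, 186, 296 and 240 CPM in sick, against 168, 195, 196 and 206 CPM in healthy mice (0.23 ± 0.27, adjusted p = 0.507). In both genes sick mouse 3 was above every healthy mouse, and sick mice 1 and 2 were within or below the healthy range. Without healthy mouse 1 the count of members that rose was 37, the lowest when a library was left out, and 20.6% of all genes rose in that fit.

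Of 16 genes whose human counterparts are mutated in Diamond-Blackfan anaemia 10 rose (14 without wild-type mouse 2), of 13 genes of the small subunit head 9 rose (13), and of 5 genes around the exit tunnel and peptidyl transferase centre all 5 rose (5). Over all genes tested 24.5% rose (27.7% without wild-type mouse 2), and over all members 57 of 86 (69), so these counts set none of the groups apart from the other members. Rpl5, which with Rpl11 and 5S RNA forms the particle that can bind Mdm2, stood at 157, 145, 189 and 154 CPM in sick, against 104, 97.2, 105 and 106 CPM in healthy mice (0.65 ± 0.16, adjusted p = 0.00473). Its partner Rpl11 stood at 99.3, 93.7, 136 and 120 CPM in sick, against 71.4, 74.3, 77.9 and 75.9 CPM in healthy mice (0.58 ± 0.23, adjusted p = 0.0577, and 0.00167 without wild-type mouse 2). The groups did not overlap in either gene. Rps27a, made as a fusion with ubiquitin, had a log2 fold change of 0.62 ± 0.25 (adjusted p = 0.0561, and 0.000723 without wild-type mouse 2). Of the stalk proteins, which recruit elongation factors, Rplp2 rose (0.76 ± 0.24, adjusted p = 0.021) and so did Rplp0 (0.67 ± 0.24, adjusted p = 0.0347), while Rplp1 had 0.59 ± 0.29 (adjusted p = 0.113, and 0.00883 without wild-type mouse 2). Rplp0 stood at 216, 209, 261 and 342 CPM in sick, against 126, 144, 149 and 226 CPM in healthy mice, where healthy mouse 4 reached into the sick range. The call of Rplp2 was lost without healthy mouse 3 (adjusted p = 0.054) or sick mouse 4 (adjusted p = 0.0551). That of Rplp0 was lost when any 1 of 5 libraries, healthy mice 1, 2 and 3 and sick mice 3 and 4, was left out.

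Of the 5 paralogues 0 were called higher and 2 lower, against 24.5% and 21.9% of all genes. With so few genes these counts cannot set the paralogues apart from all genes. Their median log2 fold change was -0.21, against 0.69 over the canonical genes. Rpl3l, the striated muscle counterpart of Rpl3, stood at 0.0405, 0.398, 0.153 and 0.360 CPM in sick knock-in mice, against 3.11, 2.20, 2.40 and 3.86 CPM in healthy knock-in mice. It fell by 3.52 on the log2 scale (SE 0.54, adjusted p = 0.000203). Its counts summed over the 4 libraries were 22 in sick, against 201 in healthy mice, so the size of the fall rests on few reads. The gene passed the filter on low counts through the groups where it was higher. Skeletal muscle genes differed between the same groups, with a summed level over 10 genes of 2.55 to 16.0 CPM in sick, 242 to 395 CPM in healthy knock-in and 2.02 to 3.77 CPM in wild-type mice, and their part in the result for Rpl3l was not tested. Rpl7l1, a paralogue of Rpl7 that takes part in assembling the large subunit, stood at 48.5, 44.6, 64.1 and 54.7 CPM in sick, against 65.1, 79.3, 80.1 and 71.8 CPM in healthy mice (-0.48 ± 0.15, adjusted p = 0.0182). The call of Rpl7l1 did not hold when sick mouse 1 (adjusted p = 0.0521) or sick mouse 2 (adjusted p = 0.0572) was dropped. Its adjusted p was 0.0602 with upper-quartile scaling, and scaling by library totals alone gave a value of 0.0896 (adjusted p = 0.617). Rpl22l1 had 0.19 ± 0.26, Rpl36al -0.21 ± 0.25 and Rps27l -0.10 ± 0.23, with adjusted p of 0.516 to 0.760 and overlapping groups.

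How sick knock-in differed from wild-type mice depended on wild-type mouse 2. With all 12 libraries 8 members rose and 2 fell, against 25.9% and 25.0% of all genes, with a median of 0.32 over the members and 0.02 over all genes. Without mouse 2, 67 members rose and 3 fell, against 26.9% and 25.9% of all genes, with medians of 0.64 and 0.03. The 8 are all among the 67. With all 12 libraries and an offset for transcript length in each library, 56 rose and 4 fell, against 23.3% and 33.7% of all genes, and these 56 are all among the 67 as well. The same offset gave 69 and 3 in sick against healthy knock-in mice, against 23.8% and 28.7% of all genes. In 0 of the 86 did all 4 sick mice lie above all 4 wild-type mice, against 22.7% of all genes, and without mouse 2 it was 66, against 27.3%.

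The 8 that rose with all libraries were Rpl12, Rps12, Rps16, Rps9, Rps4x, Rpl36a, Rpl7 and Rpl23. Rpl12 stood at 142, 112, 169 and 151 CPM in sick knock-in mice, against 64.3, 113, 57.5 and 58.4 CPM in wild-type mice (0.97 ± 0.21, adjusted p = 0.00206). Without mouse 2 its log2 fold change was 1.25 ± 0.14 (adjusted p = 3.2e-05), and the groups no longer overlapped. Rps16, on the head of the small subunit, stood at 129, 117, 149 and 137 CPM in sick, against 63.1, 133, 63.4 and 68.0 CPM in wild-type mice (0.70 ± 0.22, adjusted p = 0.0163), and had 1.02 ± 0.11 without mouse 2 (adjusted p = 2.30e-05). Mouse 2 lay within the sick range in both genes or at its edge, and the other 3 wild-type mice lay close together below it. The calls of Rps16, Rps9, Rps4x, Rpl36a, Rpl7 and Rpl23 were each lost without wild-type mouse 1 and without wild-type mouse 3, and all of them but Rps16 also without wild-type mouse 4. Rps9, Rpl36a, Rpl7 and Rpl23 were further lost without sick mouse 3, sick mouse 4 or healthy mouse 3, Rpl36a and Rpl7 also without sick mouse 1 or healthy mouse 4, Rpl36a, Rpl7 and Rpl23 also without healthy mouse 1, and Rpl7 also without sick mouse 2 or healthy mouse 2. The adjusted p in these fits was 0.0501 to 0.138.

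The calls of single members that appeared without wild-type mouse 2 included Rps24, at 153, 131, 202 and 172 CPM in sick, against 88.8, 196, 82.4 and 81.5 CPM in wild-type mice. Its log2 fold change was 0.55 ± 0.26 with all libraries (adjusted p = 0.093) and 0.95 ± 0.14 without mouse 2 (adjusted p = 0.000192). Rps20 had 0.60 ± 0.24 (adjusted p = 0.0517) and 0.96 ± 0.13 (adjusted p = 0.000123). Rps3a1 did not pass either way, with 0.27 ± 0.25 and 0.45 ± 0.24. The 10 canonical genes that did not pass without mouse 2 were Rpl7a, Rpl15, Rpl28, Rpl29, Rpl35a, Rpl41, Rplp0, Rps2, Rps3a1 and Rps25.

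The falls against wild-type mice were those of 2 paralogues with all libraries. Rpl3l, at 0.0405 to 0.398 CPM in sick mice, stood at 0.890, 2.18, 0.693 and 1.83 CPM in wild-type mice (-2.50 ± 0.54, adjusted p = 0.00203, and -2.21 ± 0.56 without mouse 2), and the groups did not overlap. Its summed counts were 22 in sick and 84 in wild-type mice, so this fall also rests on few reads. In the same comparison 6 of the 10 skeletal muscle genes were called higher in sick mice and 1 lower (3 and 0 without mouse 2). Over all genes 25.9% were higher and 25.0% lower (26.9% and 25.9% without mouse 2), so the count of 3 was near that share. The summed level of the 10 genes was low, 2.55 to 16.0 CPM in sick and 2.02 to 3.77 CPM in wild-type mice. Their part in the result for Rpl3l was not tested. Rpl7l1 stood at 48.5, 44.6, 64.1 and 54.7 CPM in sick, against 74.8, 102, 69.9 and 80.2 CPM in wild-type mice (-0.63 ± 0.15, adjusted p = 0.00375). With library totals alone its value was -0.0423 (adjusted p = 0.817). The third fall without mouse 2 was the row with the symbol Rpl24, whose ID belongs to Zbtb11 (-0.76 ± 0.21, adjusted p = 0.00909). The row RPL24, whose ID the annotation gives to the ribosomal protein gene and which the rule passes over for its capitals, had 0.48 in that comparison (adjusted p = 0.0179).

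**Figure D3:**
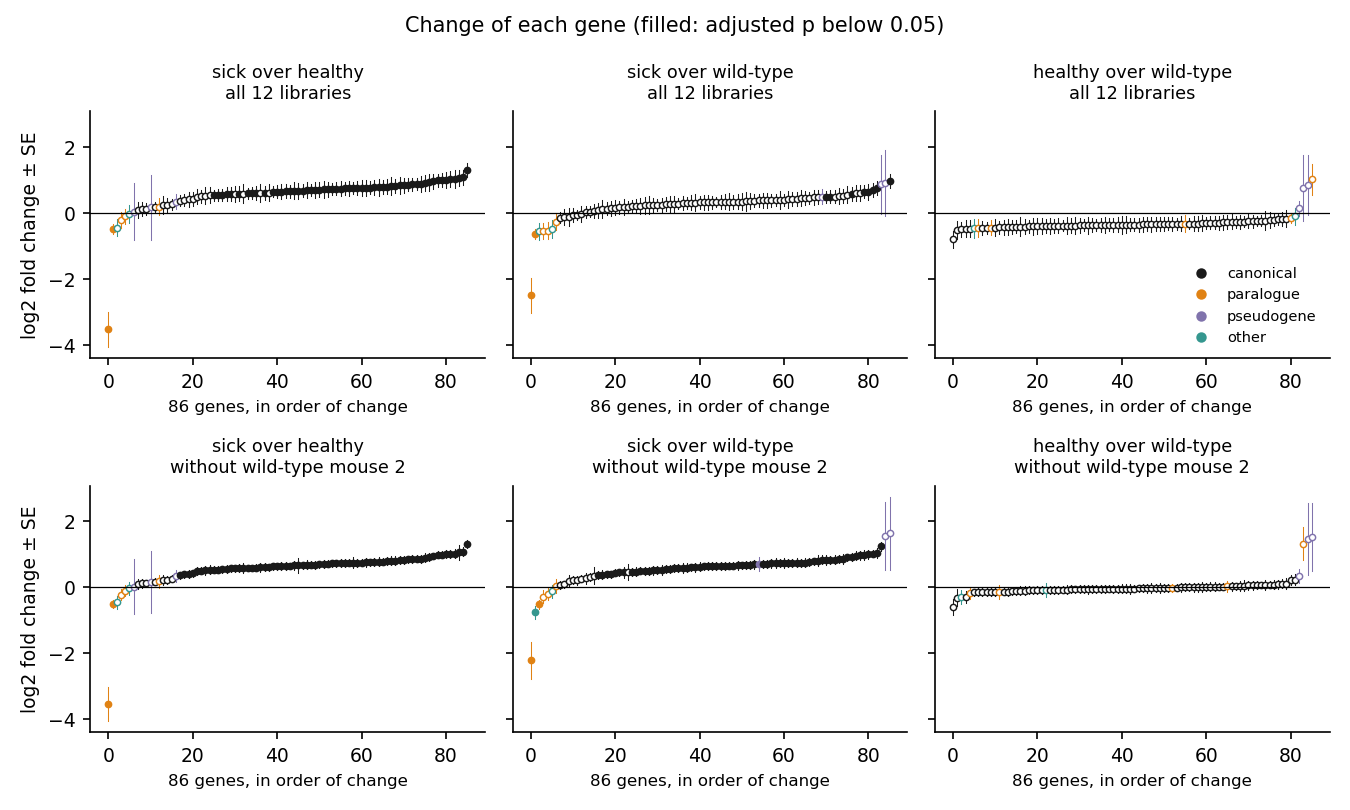
Log2 fold change ± SE (vertical axis) of each of the 86 genes in the 3 comparisons, each panel in order of size, with all 12 libraries above and without wild-type mouse 2 below, and filled points for an adjusted p below 0.05. Sick over wild-type has 8 filled points above 0 in the upper row and 67 in the lower row, and healthy over wild-type has none in either.

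Healthy knock-in and wild-type mice carry different genotypes without illness. No member passed the test, with or without wild-type mouse 2. Over all genes 0.308% rose and 0.00641% fell with all libraries, and 0.283% and 0.00630% without mouse 2. At an unadjusted p below 0.05 there were 4 members with all libraries and 2 without mouse 2, and neither DESeq2 nor limma-voom called any. The median log2 fold change was -0.36 with all libraries, where 4 of the 86 genes had a positive value, and -0.04 without mouse 2. In 12 members all 4 healthy knock-in mice lay below all 4 wild-type mice, against 1.80% of all genes, and without mouse 2 in 13, against 3.68%. The smallest p belonged to Rps3a1, at 63.0, 66.1, 95.3 and 64.2 CPM in healthy knock-in, against 125, 173, 97.1 and 108 CPM in wild-type mice (-0.80 ± 0.25, adjusted p = 0.781). Summed with its 2 copies it was 91.1 to 110.2 CPM in healthy knock-in, against 125, 207, 110.1 and 123 CPM in wild-type mice. Rpl30 had -0.45 ± 0.19 and Rpl3l 1.02 ± 0.46, both with an adjusted p of 0.912, beside the muscle genes that were higher in all 4 healthy mice.

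Relative to the healthy knock-in mean, the median log2 level over the members was 0.52, 0.44, 0.87 and 0.69 in sick mice 1 to 4, and 0.08, 0.997, -0.02 and 0.07 in wild-type mice 1 to 4. The 1219 other genes with transcripts of up to 1000 bases had medians of -0.33, -0.25, 0.11 and -0.15 in the sick mice, and 0.04, 0.77, -0.04 and -0.01 in the wild-type mice. In wild-type mouse 2 the members and the other short genes were both high, whereas in sick mice 1, 2 and 4 the members were above the healthy mean and the other short genes below it. Sick mouse 3 was the highest sick mouse in both.

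**Figure D4:**
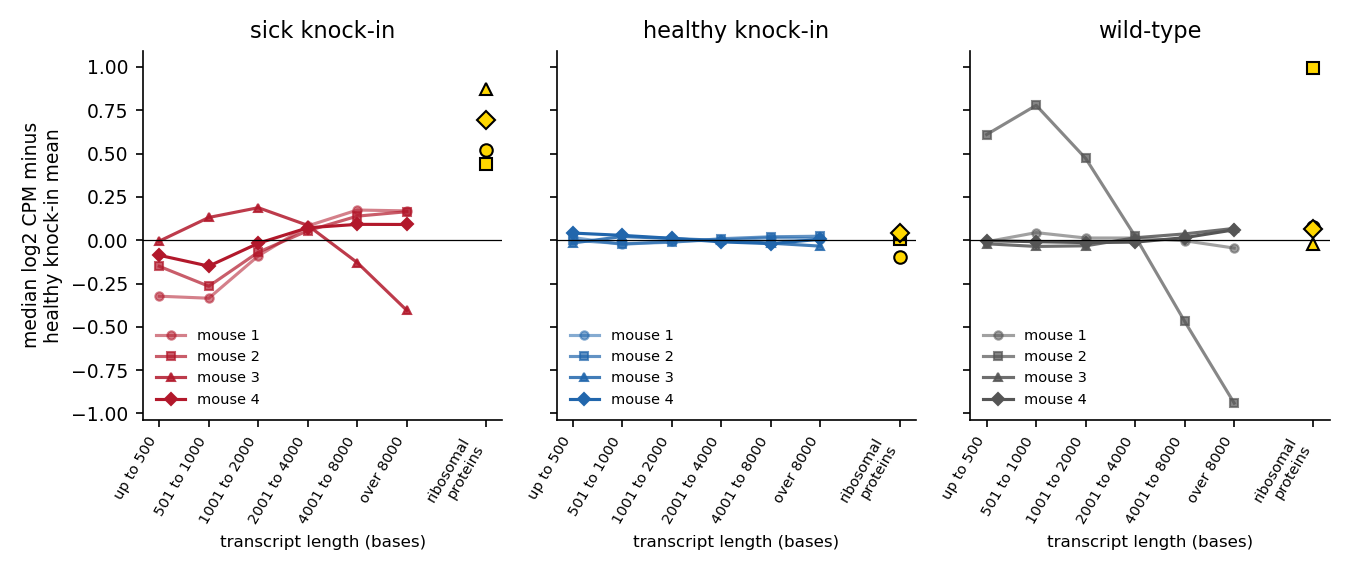
Median log2 CPM minus the healthy knock-in mean (vertical axis) of all genes but the members in 6 classes of transcript length, with the median over the 86 ribosomal protein genes in yellow at the right of each panel, by mouse. Wild-type mouse 2 runs from 0.78 in the 501 to 1000 class to -0.94 in the longest, and in the 4 sick mice the yellow points, at 0.44 to 0.87, stand above every length class.

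Compared per length and by the mean over all 12 libraries, the most abundant members were Rplp1, Rps9, Rpl8, Rpl32 and Rpl41. This order rests on the annotated lengths, which are long for some members (3706 bases for Rps20 and 5130 for Rps15a) and lower their place. The order differed between groups: in sick mice Rps12, at 547 CPM per kb, came after Rplp1 and Rps9, and Rpl4, at 463, was above Rpl41, and in healthy knock-in mice Rpl41 and Rpl8 came after Rplp1. In CPM per kb of transcript Rplp1 averaged 641 ± 85.3 in sick, 426 ± 74.4 in healthy knock-in and 499 ± 276 in wild-type mice (SD, n = 4 each). Rps9 averaged 622 ± 92.2 in sick, 306 ± 13.7 in healthy knock-in and 398 ± 176 in wild-type mice. Rpl8, which lies near the peptidyl transferase centre, averaged 491 ± 68.7 in sick, 350.2 ± 24.6 in healthy knock-in and 443 ± 186 in wild-type mice. Rpl32 averaged 535 ± 86.8 in sick, 316 ± 19.4 in healthy knock-in and 428 ± 175 in wild-type mice, and Rpl41 413 ± 102 in sick, 351 ± 29.9 in healthy knock-in and 449 ± 221 in wild-type mice. In sick mice Rplp1 and Rps9 differed by less than the SD of either, and in healthy mice Rpl41 and Rpl8 differed by less than the SD of either.

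The other genes of protein synthesis gave different counts from list to list. Over all genes tested, 24.5% rose and 21.9% fell in sick against healthy mice (27.7% and 25.9% without wild-type mouse 2). Of 5 ribosomal protein genes with other names, sick mice had 2 higher than healthy knock-in mice (4 without wild-type mouse 2) with a median of 0.51. They were Gnb2l1, which encodes the scaffold RACK1 of the small subunit, at 541 ± 42.8 CPM in sick and 318 ± 19.4 CPM in healthy mice (0.77 ± 0.18, adjusted p = 0.00334), and Gm9846, which the annotation names Rps27rt (1.01 ± 0.24, adjusted p = 0.00429). Of 5 host genes of small nucleolar RNAs, whose transcripts also begin with a TOP motif, all 5 rose with a median of 1.09. Snhg5 averaged 12.2 ± 0.900 CPM in sick and 3.00 ± 0.581 CPM in healthy mice (2.02 ± 0.18, adjusted p = 5.73e-06), and Gas5 at 81.6 ± 24.0 CPM in sick and 38.4 ± 2.59 CPM in healthy mice (1.09 ± 0.18, adjusted p = 0.000417). Of 21 elongation and other TOP genes, 5 rose and 1 fell with a median of 0.18 (7 and 2 without wild-type mouse 2). With all libraries the count of that list that rose was near the share over all genes. Eif3f (0.95 ± 0.16), a subunit of the initiation factor complex, and Npm1 (0.81 ± 0.11), the nucleolar chaperone nucleophosmin, were among the genes of the list that rose. Of 43 ribosome biogenesis genes 6 rose and 1 fell (9 and 4 without wild-type mouse 2), the last with all libraries being Rpf2, which helps load the 5S particle (-1.01 ± 0.24, adjusted p = 0.00461). Of 24 initiation factor genes 1 rose and 5 fell (2 and 9 without wild-type mouse 2), and the scaffold gene Eif4g1 fell by 0.62 on the log2 scale (SE 0.14, adjusted p = 0.00345). With all libraries the count of initiation genes that fell was near the share over all genes. With libraries scaled by their totals alone, where the median of all genes was 0.63, the counts higher and lower became 21 and 0 for elongation and other TOP genes, 36 and 0 for biogenesis and 16 and 0 for initiation, with medians of 0.76, 0.68 and 0.40. Most genes were called higher on that scale, 55% over all genes, with 9.14% lower.

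The mitochondrial ribosomal protein genes gave other counts. Of the 76 genes, 38 were called lower and 2 higher in sick than in healthy knock-in mice (median -0.58; 59 and 3 without wild-type mouse 2), against 21.9% lower and 24.5% higher over all genes. Against wild-type mice 0 rose and 68 fell with a median of -0.90, against 25.9% and 25.0% of all genes. Without mouse 2, 3 rose and 60 fell with a median of -0.61, against 26.9% and 25.9% of all genes. The summed level of the 76 genes was 1585 to 2641 CPM in sick, 2935 to 3135 CPM in healthy knock-in and 2999 to 5305 CPM in wild-type mice, with mouse 2 the highest. Mrpl12 averaged 73.4 ± 25.9 CPM in sick and 166 ± 11.8 CPM in healthy knock-in mice (-1.18 ± 0.28, adjusted p = 0.00425). Both the cytosolic and the mitochondrial set were high in wild-type mouse 2. The falls depended on the scaling. With libraries scaled by their totals alone, where the median of all genes was 0.63 in sick against healthy and 0.61 in sick against wild-type mice, the mitochondrial set had 6 higher and 6 lower with a median of -0.01 in the first comparison, and 3 higher and 17 lower with a median of -0.31 in the second. On that scale the members had 78 higher and 1 lower with a median of 1.23 in the first, and 75 higher and 1 lower with a median of 0.91 in the second. Most genes were called higher there: over all genes 55% were higher and 9.14% lower in the first, and 54% and 10.3% in the second.

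**Figure D5:**
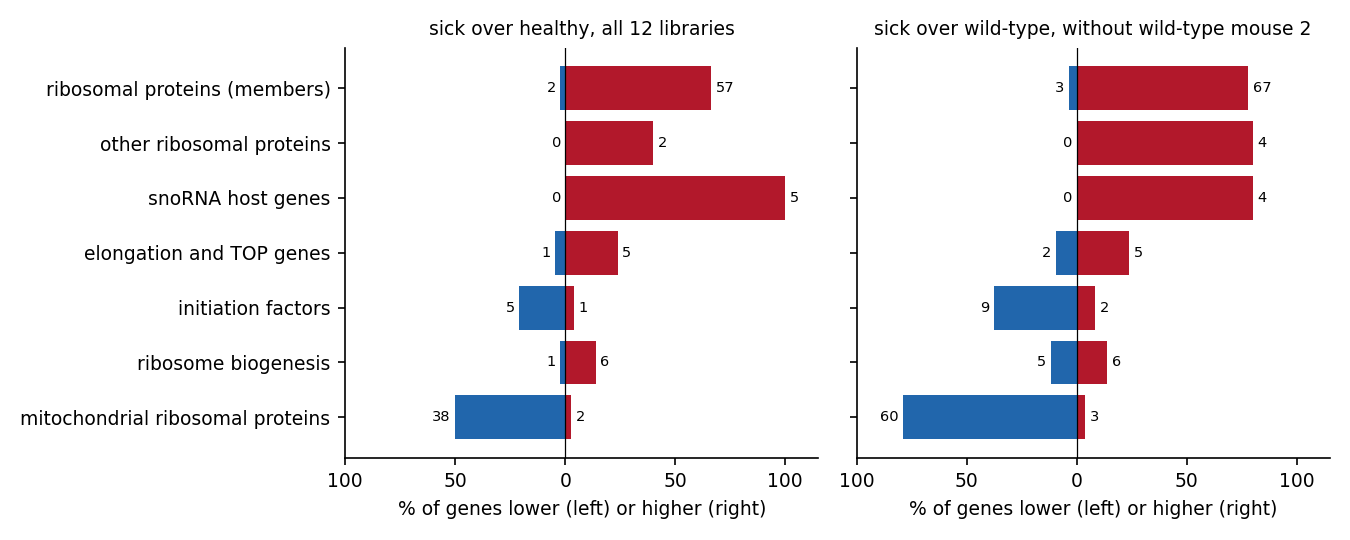
Percentage of the genes of each set that were higher (red, right) or lower (blue, left) at an adjusted p below 0.05, with the number of genes beside each bar, for sick over healthy knock-in mice with all 12 libraries and sick over wild-type mice without wild-type mouse 2. The members have 57 and 67 genes higher, and the mitochondrial ribosomal protein genes 38 and 60 lower.

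Regulators of ribosomal protein synthesis were followed by transcript level. Myc, the transcription factor that drives ribosome production, averaged 26.5 ± 8.69 CPM in sick and 5.23 ± 0.795 CPM in healthy knock-in mice (2.34 ± 0.42, adjusted p = 0.00071). Eif4ebp1, which encodes the translational repressor that mTOR inactivates, averaged 34.6 ± 7.83 CPM in sick and 9.90 ± 3.24 CPM in healthy mice (1.80 ± 0.28, adjusted p = 0.000218), and Mtor fell to 116 ± 10.6 CPM in sick, against 339 ± 32.7 CPM in healthy mice. In all, 3 of 24 genes of the mTOR and Myc list rose and 6 fell (3 and 7 without wild-type mouse 2, 12 and 1 with library totals alone). Over all genes tested 24.5% rose and 21.9% fell (27.7% and 25.9% without wild-type mouse 2, 55% and 9.14% with library totals alone). The count of the list that fell was near that share with all libraries. Of 10 genes of the p53 and Mdm2 list, 5 rose and 1 fell (7 and 1 without wild-type mouse 2, 8 and 0 with library totals alone), with Cdkn1a, the cell cycle inhibitor p21, at 91.9 ± 28.4 CPM in sick and 20.3 ± 17.2 CPM in healthy mice (2.18 ± 0.59, adjusted p = 0.00888). Mdm2 itself had -0.00 ± 0.19. Of 16 cell division genes 1 rose, Mcm3 (0.91 ± 0.25, adjusted p = 0.00973), and 8 did with library totals alone.

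Cell type markers also differed between the groups. Proximal tubule genes, which mark kidney, were detected in all groups, at a summed level of 3788 to 7984 CPM over 15 genes in sick, 47730 to 61970 CPM in healthy knock-in and 27280 to 64180 CPM in wild-type mice, with mouse 2 the lowest of the last, and all 15 were called lower in sick than in healthy mice. All 11 macrophage genes rose, with sums of 996 to 1946 CPM in sick, 206 to 274 CPM in healthy knock-in and 138 to 267 CPM in wild-type mice, and none was at 0 in every library of a group. The sums for T, NK and B cells were 17.2 to 54.7 CPM in sick, 12.1 to 20.5 CPM in healthy knock-in and 6.93 to 11.6 CPM in wild-type mice, and those for adipose genes 60.5 to 1817 CPM in sick, 48.4 to 96.8 CPM in healthy knock-in and 66.4 to 136 CPM in wild-type mice. Their part in the results for the members was not tested.

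Members with a pyrimidine run at the annotated start were also counted apart from those without one. In sick against healthy knock-in mice 25 of 32 with a run and 19 of 31 without one rose, with medians of 0.70 and 0.59. Against wild-type mice without mouse 2 these were 26 of 32 and 21 of 31, with medians of 0.67 and 0.47. The difference between members with and without a run was not tested. The 2 sets also differ in make-up. Of the 63 members with a promoter entry 56 are canonical, 30 of them with a run, so most of the other rows lack one. No member outside the canonical genes rose in sick against healthy mice. Promoters were matched by symbol, so the row Rpl24, whose ID belongs to Zbtb11, was counted with the promoter of that symbol. Absence of a run, as in Rps16 among the sequences above, says only that these letters are not in the 30 bases searched.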

How the data were processed

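Per the file headers, the authors deposited unnormalised counts by Ensembl gene ID for 12 kidney libraries, 1 per mouse. The submitters' processing notes list DESeq2 1.12.4, Cufflinks, TopHat2 2.0.11 and Trim Galore 0.3.7, and the build GRCm38. How reads were counted, and whether strand or multiple matches were considered, is not given in the sources used. The 12 columns of normalised values were not used.

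Groups came from the labels. The members, gene lists and tests were chosen with earlier results of these data known. Counts were fitted with edgeR 4.0.16 in R 4.3.3 with the quasi-likelihood method and a separate mean for each group, over all 12 libraries, after filterByExpr and TMM scaling, p-values being adjusted by Benjamini-Hochberg across the 15589 genes that passed, with calls at 0.05. SEs were taken as the absolute log2 fold change divided by the root of the F statistic. CPM used effective library sizes. Transcript lengths came from GENCODE M21 of GRCm38, with a length for 99.1% of the genes tested. Each is that of a chosen transcript of the gene, and some are long for a member, as 3706 bases for Rps20 and 5130 for Rps15a. With length offsets the log2 fold change in sick against wild-type mice was 0.35 for Rps20 (adjusted p = 0.28) and -0.04 for Rps15a (adjusted p = 0.922). Length offsets are a spline with 5 degrees of freedom of log2 level on log2 length in each library. Genes were named by a rule. In each comparison it took up to 10 members with the largest rise and up to 10 with the largest fall among those past the threshold, the 3 smallest p where fewer than 3 passed, the paralogues, the P stalk, the 5S particle and ubiquitin fusion members, and the 5 highest levels per kb. The further members named were chosen after their values were seen. Up to 3 genes of each gene list were named by the size of their change. Counts of genes carry counting error. No confidence intervals are shown, and the ± values after log2 fold changes are SEs of the fit. Nothing says that the mice came from separate litters. Alternatives were other scalings (DESeq2 size factors, upper quartile, library totals), other filters, the 8 libraries of a comparison alone, a replicate block, length offsets, DESeq2 1.42.0, limma-voom 3.58.1 with quality weights, an adjusted p of 0.01, and each library left out. Leaving out wild-type mouse 2 together with sick mouse 3, length offsets without wild-type mouse 2, and canonical members alone were added after seeing the data.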

Additional observations from a re-analysis of the deposited data

Results flagged for a closer look

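In the members named and in their summed share, 84 groups of 4 mice were examined for a mouse far from the other 3, by Dixon's test at the 95% level, which by chance marks about 1 group in 20. It marked 23, but the groups hold the same mice and genes that vary together, so that rate is no yardstick for the count. Of the 23, 20 were high values of wild-type mouse 2, which had already been set apart, and they are not separate events.

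Wild-type mouse 2 held 1.47% of its counts in the members. Among the small subunit genes it stood at 249 CPM for Rps12, 133 CPM for Rps16, 497 CPM for Rps9, 333 CPM for Rps4x, 196 CPM for Rps24, 288 CPM for Rps20, 177 CPM for Rps19 and 157 CPM for Rps27a. Among the large subunit genes it stood at 113 CPM for Rpl12, 128 CPM for Rpl36a, 373 CPM for Rpl7, 386 CPM for Rpl23, 226 CPM for Rplp2, 167 CPM for Rpl11, 613 CPM for Rpl8, 357 CPM for Rpl32 and 424 CPM for Rpl41. The paralogues Rpl36al, at 90.4 CPM, and Rps27l, at 157 CPM, were high in the same mouse. Sick mouse 3 was high for Rpl7, at 439 CPM. Healthy mouse 3 was high for Rps3a1, at 95.3 CPM, and low for Rplp2, at 102 CPM.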

How the results depend on the processing

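The count of members higher in sick knock-in than in wild-type mice was 8 and moved most with the setting. It was 2 to 67, with 2 to 4 lower and a median log2 fold change of 0.21 to 0.64, when 1 library was left out, the highest without wild-type mouse 2. It was 56, with 4 lower, with length offsets, 52 and 4 with length offsets and the replicate block, 68 higher with length offsets and without wild-type mouse 2, and 65 and 5 without wild-type mouse 2 and sick mouse 3. It was 66 and 4 in limma-voom with quality weights, 23 higher with upper-quartile scaling, 3 and 1 with only the 8 libraries compared, 75 and 1 (median 0.91) with library totals alone, 1 higher at an adjusted p of 0.01, and 0 lower among canonical members alone. Over all genes tested, 54% rose and 10.3% fell with library totals alone, and 30.4% and 20.3% with upper-quartile scaling. In limma-voom these shares were 30.2% and 29.6%. They were 23.3% and 33.7% with length offsets, 23% and 32.5% with the block added, and 23.2% and 34% with length offsets and without wild-type mouse 2. They were 28.1% and 28.2% without wild-type mouse 2 and sick mouse 3, 23.9% and 21.9% with only the 8 libraries compared, and 18.8% and 17.9% at an adjusted p of 0.01. The count of 2 came without wild-type mouse 1 or 3, where 23.3% and 23.9% of all genes rose, and that of 67 stood beside 26.9%.

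In sick against healthy knock-in mice the count was 37 to 69 higher and 1 to 2 lower when 1 library was left out, with a median of 0.56 to 0.72, and 23 higher and 1 lower at an adjusted p of 0.01. Over all genes 20.6% rose and 19% fell in the fit with 37, and 27.7% and 25.9% in that with 69. At an adjusted p of 0.01 these shares were 16.5% and 15.4%. The count of members that fell was 1 with upper-quartile scaling, 1 with library totals alone (median 1.23), 4 without wild-type mouse 2 and sick mouse 3, and 0 among canonical members alone. Over all genes 18.2%, 9.14%, 28% and 21.9% fell in these settings. Rpl7l1 reversed with library totals alone, to 0.0896 (adjusted p = 0.617). In healthy knock-in against wild-type mice the count stayed at 0 to 0 with 1 library left out, and the median was -0.448 to -0.0387, and -0.0387 without wild-type mouse 2 and sick mouse 3. The mean share of counts was 1.35% in sick and 0.854% in healthy mice over effective library sizes, and 1.90% in sick, 0.882% in healthy and 1.09% in wild-type mice without mitochondrial genes. Apart from what the settings leave out or rescale, the cause was not tested.

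Of all calls, 52.7% were higher in sick against healthy mice and 50.8% in sick against wild-type mice. With library totals alone these were 85.8% and 84.0%, and with upper-quartile scaling 61.7% and 60%. Deviations of mice of the same number had correlations of -0.26 to 0.224 in sick against wild-type mice and -0.0244 to 0.0588 in sick against healthy mice. In healthy knock-in against wild-type mice they were -0.109 to 0.243. In both comparisons with wild-type mice, numbers 1 and 4 matched best with their own number. With so few mice these values cannot decide whether the numbers pair them, and the labels do not say. With the replicate block 52 members were higher and 2 lower in sick against healthy mice, 8 and 2 in sick against wild-type mice, and 0 and 0 in healthy against wild-type mice. The shares over all genes were 23.1% and 20.5%, 24.8% and 23.2%, and 0.276% and 0.00641% in the same order.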
